A study of Sus scrofa with 18 samples.

Results

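Expression of 9 transcription factors that mark the steps from cortical progenitor to projection neuron was profiled in whole fetal brains of pigs on GDs 45, 60 and 90. The members were PAX6, EOMES, TBR1, FEZF2, BCL11B, SOX5, CUX1, CUX2 and RORB, chosen by gene name from the table of gene counts, and all 9 of them were among the 31908 genes of that table. A total of 18 libraries were available, 1 per fetus, with 3 female and 3 male fetuses at each GD. Landrace × Large White gilts had been inseminated with semen of the LR-M6 line, no treatment was given, and no group carried a genetic modification. The labels do not name the dam, but each GD held 3 litter sizes with 1 female and 1 male each, so fetuses that shared a GD and a labelled litter size were probably litter-mates, and the 6 libraries of a GD then stood for 3 litters. The tissue was the entire brain, so cortex was mixed with striatum, thalamus, cerebellum and brainstem, and fewer cells of a type and less RNA per cell could not be told apart.

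Projection neurons are the excitatory neurons of the cerebral cortex, and they are born from radial glia directly or through intermediate progenitors. PAX6 is expressed by radial glia, EOMES (also called TBR2) by intermediate progenitors, and TBR1 by the young postmitotic neurons that follow, with deep layer neurons born before upper layer neurons. FEZF2, BCL11B (CTIP2) and SOX5 specify and refine the deep layer neurons that project below the cortex, whereas CUX1 and CUX2 mark the upper layers and RORB marks layer 4. None of the genes is confined to cortex: PAX6 and EOMES are also used in the cerebellum, where granule cells and unipolar brush cells express them, BCL11B in the striatum, and RORB in the thalamus.

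Libraries held 15118843 to 19729783 counts on genes (median 16413097), and the 16325 genes that passed the filter on low counts, all 9 members included, were tested. Levels are given as CPM, the counts of a gene scaled to library size and composition. Male GD45 replicate 17 stood apart from its own group, with a chi-square of 116 and 139 per degree of freedom against the other males of its GD, which differed from each other by 10.4. Female GD60 replicate 15 stood apart in the same way, at 71.1 and 52.0 against the other GD60 females, which differed from each other by 7.10. The coverage of genes also differed between libraries. The last-exon share, defined here as the median share of a gene's exon counts that fell on its last exon over 1715 genes with 1 transcript and at least 4 exons, ranged from 44.5% in male GD90 replicate 10 to 69.3% in male GD45 replicate 17. It was 60.7% in female GD60 replicate 15, 59.8% in female GD45 replicate 12 and 59.2% in female GD90 replicate 2, and 44.5 to 46.7% in the 3 GD90 males against 48.8 to 59.2% in the 3 GD90 females. For many of the results that move with this share, values with and without it are given below.

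The tissue was checked with genes named in other roles. Among radial glia genes, the intermediate filament gene NES had medians of 289, 169 and 68.8 CPM at GDs 45, 60 and 90. Of 12 HOX genes that mark hindbrain and spinal cord, 11 were in the table, and their summed level ranged from 0 to 97.1 CPM across the GD45 libraries but reached only 3.83 CPM at GD60 and 1.47 CPM at GD90. The 4 retina markers and the 5 T cell markers were below the filter, with summed levels of up to 0.863 CPM and 0.860 CPM in any library.

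The members occupied 8 chromosomes of the Sscrofa11.1 assembly, EOMES and FEZF2 both lying on chromosome 13. PAX6 (ENSSSCG00000013320) was counted over 2:28971567-29001200 on the plus strand, EOMES (ENSSSCG00000040057) over 13:14210083-14215797 on the minus strand, and CUX2 (ENSSSCG00000009831) over 14:32311751-32587204 on the plus strand. TBR1 (ENSSSCG00000015891, 15:68213562-68222991), SOX5 (ENSSSCG00000000567, 5:49160723-50161570), CUX1 (ENSSSCG00000007681, 3:9317114-9669998) and RORB (ENSSSCG00000005268, 1:227574647-227772693) lay on the plus strand, and FEZF2 (ENSSSCG00000011487, 13:43953883-43958430) and BCL11B (ENSSSCG00000002507, 7:120205008-120295815) on the minus strand. The 200 bases upstream of the RefSeq gene start are shown for PAX6 and CUX2, since PAX6 fell and CUX2 rose between GD45 and GD60 (chr2:28971365-28971564 and chr14:32311581-32311780, both on the plus strand, 5′ to 3′). Capitals mark CCAAT or ATTGG and TATAAA or TTTATA.
PAX6 upstream: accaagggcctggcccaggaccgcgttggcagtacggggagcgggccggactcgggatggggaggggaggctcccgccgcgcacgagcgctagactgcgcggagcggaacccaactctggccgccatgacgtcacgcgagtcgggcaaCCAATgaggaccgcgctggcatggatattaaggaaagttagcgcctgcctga
CUX2 upstream: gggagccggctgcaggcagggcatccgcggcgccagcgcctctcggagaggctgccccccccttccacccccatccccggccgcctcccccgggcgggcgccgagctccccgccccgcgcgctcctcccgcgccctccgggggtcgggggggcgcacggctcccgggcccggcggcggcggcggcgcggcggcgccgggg
The PAX6 window held 1 CCAAT match and no TATAAA match, and the CUX2 window held neither. Among the same windows of 19545 protein-coding RefSeq genes, 27.7% held CCAAT or ATTGG and 7.7% held TATAAA or TTTATA. The E-box CANNTG, the motif bound by proneural bHLH factors, was in 53.4% of all windows and, reading both strands, in neither of the windows shown, which says only that these letters were not in these 200 bases. Base composition differed between the members, with 91.5% G and C upstream of CUX1 and 87.0% upstream of CUX2 against 31.5% upstream of TBR1, where the median of all windows was 59.0% and the middle 90% of windows lay between 35% and 81.0%.

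In the model of 6 groups the progenitor and young neuron factors were lower at GD90 than at GD45, and the upper layer factors were higher. EOMES was 40.0-fold lower at GD90 than at GD45, FEZF2 3.58-fold, PAX6 2.85-fold, TBR1 2.29-fold and SOX5 1.83-fold lower, whereas RORB was 3.59-fold, CUX2 1.43-fold and CUX1 1.27-fold higher (edgeR, means of the sexes). With the last-exon share as a covariate, a fit given below, the difference of CUX2 did not pass the test (adjusted p = 0.0863 in edgeR). RORB was then 1.76-fold higher, and CUX1 kept its call. In this comparison 3 of 9 members were called higher, where 28.3% of all genes tested were, and 5 were called lower, where 29.3% were. The median log2 difference of the 9 members was -0.90, against -0.03 for all genes tested. The levels of GD45 and GD90 did not overlap for 5 members, PAX6, EOMES, TBR1, FEZF2 and CUX1, and the share of all genes without overlap was 33.8%.

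**Figure D1:**
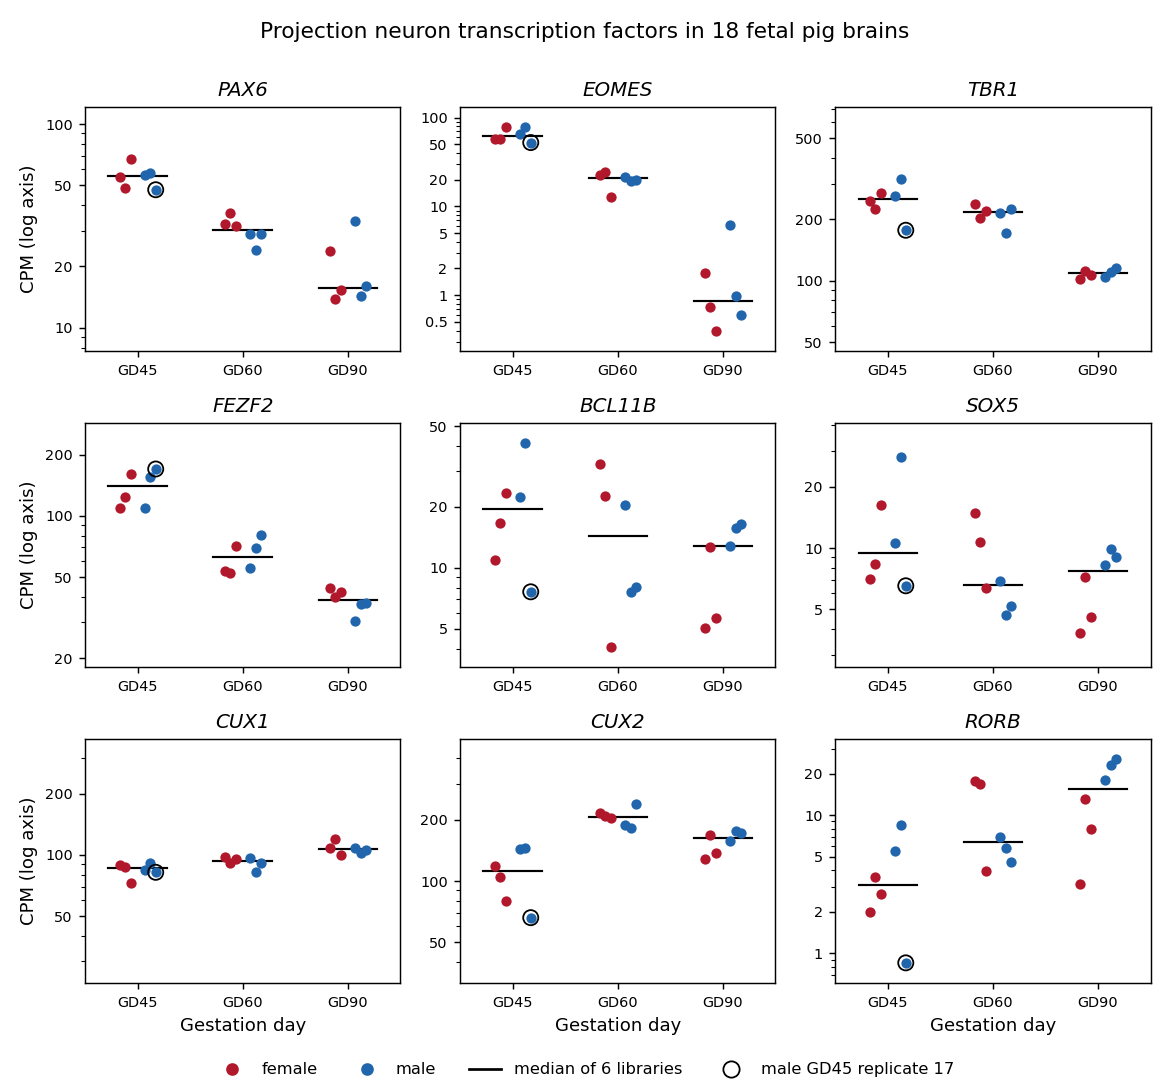
Levels of the 9 transcription factors in 18 libraries. Each point is 1 library (red female, blue male), the line is the median of the 6 libraries of a GD, the circle marks male GD45 replicate 17, and the axes are CPM on a log scale. EOMES falls from a median of 61.6 CPM to 0.857 CPM, CUX2 is highest at GD60, and BCL11B, SOX5 and RORB spread widely within each GD.

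PAX6, the paired-box factor that keeps radial glia in their progenitor state, ranged from 47.6 to 67.6 CPM at GD45 (median 55.5), from 24.2 to 36.6 CPM at GD60 (median 30.2) and from 13.8 to 33.5 CPM at GD90 (median 15.6). The GD45 libraries all stood above the GD60 libraries, and 5 of 6 GD90 libraries stood below every GD60 library. The log2 difference was -0.87 ± 0.18 (SE) from GD45 to GD60, with an adjusted p of 0.00334 in edgeR, and -0.64 ± 0.19 from GD60 to GD90, with an adjusted p of 0.0109. The library that overlapped with GD60 was male GD90 replicate 1, at 33.5 CPM, and the next was female GD90 replicate 2 at 23.8 CPM, a fetus labelled with the same litter size. The other 4 GD90 libraries held 13.8 to 16.0 CPM.

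EOMES, the T-box factor of intermediate progenitors, ranged from 52.4 to 78.2 CPM at GD45 (median 61.6), from 12.9 to 24.7 CPM at GD60 (median 20.7) and from 0.397 to 6.17 CPM at GD90 (median 0.857). No library of one GD overlapped with another GD. The fall was 3.21-fold from GD45 to GD60 (log2 -1.68 ± 0.34, adjusted p = 0.00239 in edgeR) and 12.5-fold from GD60 to GD90 (log2 -3.64 ± 0.41, adjusted p = 2.78e-06 in edgeR). At GD90 the females held 0.397, 0.729 and 1.80 CPM and the males 0.591, 0.986 and 6.17 CPM, which rest on 6 to 105 counts. The highest of these were again male GD90 replicate 1 and female GD90 replicate 2. EOMES thus had the widest change of the 9 members, and its GD90 libraries spread over 3.60 log2 units.

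Cerebellar genes moved with PAX6 and EOMES at GD90. The summed level of 10 cerebellar genes, among them the granule cell factors ZIC1, ZIC2 and BARHL1, was 400 CPM in male GD90 replicate 1 and 245 CPM in female GD90 replicate 2, against 106 to 112 CPM in the other 4 GD90 libraries. At GD60 it ranged from 125 to 324 CPM and at GD45 from 303 to 517 CPM. Of 9 cerebellar genes tested, 2 fell from GD45 to GD60 and 2 from GD60 to GD90, with median log2 differences of -0.97 and -0.34, where all genes had -0.01. Without these GD90 litter-mates, which were left out because they held the highest EOMES and PAX6 levels, so that the falls could only become larger, the log2 difference from GD60 to GD90 was -4.90 ± 0.27 for EOMES and -1.02 ± 0.12 for PAX6 in edgeR. The part of cerebellar tissue in the falls of either period was not tested.

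**Figure D2:**
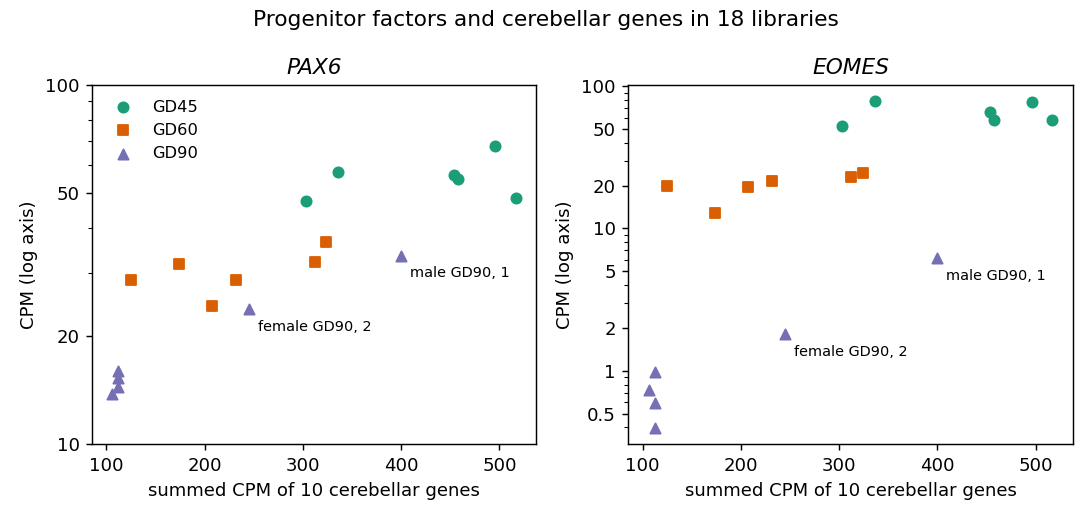
PAX6 and EOMES against the summed CPM of 10 cerebellar genes in each of 18 libraries, with CPM of the member on a log axis and colour and shape giving the GD. At GD90 male replicate 1 (400 CPM of cerebellar genes) and female replicate 2 (245 CPM) lie above the other 4 libraries in both panels.

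TBR1, a T-box factor of early postmitotic glutamatergic neurons and a determinant of layer 6, was the most abundant member per length, with a median of 65.7 FPKM (CPM divided by exon length in kilobases) at GD45. Its level was 177 to 316 CPM at GD45 (median 253), 172 to 238 CPM at GD60 (median 218) and 102 to 116 CPM at GD90 (median 109). GDs 45 and 60 overlapped, and all 6 GD90 libraries stood below them. The log2 difference was -0.23 ± 0.12 from GD45 to GD60 (adjusted p = 0.188 in edgeR) and -0.96 ± 0.12 from GD60 to GD90 (adjusted p = 5.69e-06). The lowest GD45 value, 177 CPM, was that of male GD45 replicate 17, and without it the first difference was -0.34 ± 0.08 and passed the test (adjusted p = 0.00816). The 6 GD90 libraries agreed within 0.19 log2 units, the narrowest spread of any member on any GD. Of 54153 exon counts of TBR1, 45710 were on its last exon, and the other exons alone gave -0.81 ± 0.42 from GD60 to GD90 and -0.92 ± 0.42 from GD45 to GD90, which did not pass the test (adjusted p = 0.136 and 0.0716 in edgeR).

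FEZF2, a zinc finger factor needed for corticospinal and other subcerebral neurons and also expressed by early progenitors, held 109 to 170 CPM at GD45 (median 140), 52.3 to 80.3 CPM at GD60 (median 62.6) and 30.5 to 44.4 CPM at GD90 (median 38.7). The 3 GDs did not overlap. FEZF2 fell 2.17-fold from GD45 to GD60 (log2 -1.12 ± 0.13, adjusted p = 2.59e-05 in edgeR) and 1.65-fold from GD60 to GD90 (log2 -0.72 ± 0.13, adjusted p = 0.000347). Thus FEZF2, unlike the other deep layer members, was called lower in both periods under the model of 6 groups, and it kept this call when male GD45 replicate 17 was left out. With the last-exon share as a covariate, a fit given below, BCL11B and TBR1 were also called lower in both periods.

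BCL11B, a zinc finger factor that acts downstream of FEZF2 in subcerebral neurons and marks striatal projection neurons, ranged from 7.62 to 41.2 CPM at GD45 (median 19.5), from 4.08 to 32.4 CPM at GD60 (median 14.3) and from 5.03 to 16.4 CPM at GD90 (median 12.7). All 3 GDs overlapped. The log2 difference was -0.38 ± 0.44 for GD60 against GD45 and -0.51 ± 0.45 for GD90 against GD60, with adjusted p of 0.607 and 0.383 in edgeR, and -0.90 ± 0.45 for GD90 against GD45 (adjusted p = 0.0978). Without male GD45 replicate 17 the last of these was -1.11 and passed the test (adjusted p = 0.0276), as it did without female GD60 replicate 15, a library outside that comparison (adjusted p = 0.0446). The lowest library of each GD was the one with the highest last-exon share of that GD, namely male GD45 replicate 17, female GD60 replicate 15 and female GD90 replicate 2.

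SOX5, an SRY-box factor that times the birth of deep layer and subplate neurons, ranged from 6.53 to 28 CPM at GD45 (median 9.47), from 4.72 to 14.8 CPM at GD60 (median 6.62) and from 3.83 to 9.86 CPM at GD90 (median 7.72). The GDs overlapped, and male GD45 replicate 14 held the highest value, 28 CPM. The log2 difference was -0.88 ± 0.32 for GD90 against GD45 (adjusted p = 0.026 in edgeR), and neither shorter period passed the test (adjusted p = 0.139 and 0.705). Without male GD45 replicate 14 the difference was -0.47 and did not pass (adjusted p = 0.127 in edgeR), and the call was also lost without female GD45 replicate 18, female GD90 replicate 2, female GD90 replicate 9 or male GD90 replicate 1 (adjusted p of 0.0519 to 0.0925).

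CUX2, a homeodomain factor of upper layer neurons and their progenitors, was the only member called higher from GD45 to GD60, under the model of 6 groups. It held 66.1 to 145 CPM at GD45 (median 112), 183 to 238 CPM at GD60 (median 207) and 129 to 177 CPM at GD90 (median 163). Every GD60 library stood above every library of the other GDs. The rise to GD60 was 1.89-fold (log2 0.92 ± 0.16, adjusted p = 0.000761 in edgeR), and the difference from GD60 to GD90 was -0.40 ± 0.16, at an adjusted p of 0.0504. Without male GD45 replicate 17 that second difference was the same in size and passed the test (adjusted p = 0.00242), and it also passed without female GD45 replicate 18, male GD45 replicate 11, male GD45 replicate 14 or female GD90 replicate 7 (adjusted p of 0.0413 to 0.0464). The GD45 libraries lie outside that comparison and bear on it only through the filter, scaling and spread that the 6 groups share. From 14:32585108 to its counted end at 14:32587204, CUX2 overlaps the RefSeq gene FAM109A on the opposite strand. This is most of the 2388 counted bases past the RefSeq coding sequence of CUX2. Since the strand setting of the counting is not stated, reads of these genes could not be told apart there. Of 40439 exon counts of CUX2, 32927 were on its last exon, and the other exons alone gave log2 differences of 1.28 ± 0.35 to GD60 (adjusted p = 0.0187 in edgeR) and -0.20 ± 0.34 from GD60 to GD90 (adjusted p = 0.679). From GD45 to GD90 the other exons gave 1.09 ± 0.35 (adjusted p = 0.0143 in edgeR). The last exon alone gave 0.28 ± 0.13 over that span, which did not pass (adjusted p = 0.0897).

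CUX1, the paralog of CUX2 that is also expressed outside the upper layers and in proliferating cells, had the smallest fitted differences of the 9 members from GD45 to GD60 and from GD45 to GD90. It held 72.7 to 90.9 CPM at GD45 (median 86.0), 82.1 to 97.7 CPM at GD60 (median 93.7) and 100 to 120 CPM at GD90 (median 107). All 6 GD90 libraries stood above the others. The rise from GD60 to GD90 was 1.16-fold (log2 0.22 ± 0.08, adjusted p = 0.0303 in edgeR), and this small difference lost its call when any of 7 single libraries was left out, with adjusted p of 0.0531 to 0.0879 in edgeR. It was also lost with litter-mates summed (adjusted p = 0.121), without TMM scaling (0.108), with no filter on low counts (0.0976), with the trend on gene length removed (0.118) and without the GD90 litter of 10 (0.0899). The rise from GD45 to GD90 (log2 0.35 ± 0.08, adjusted p = 0.000965) did not depend on a single library.

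RORB, a nuclear receptor that shapes layer 4 neurons, was the least abundant member per counted length at GDs 45 and 60. It ranged from 0.855 to 8.46 CPM at GD45 (median 3.13), from 3.92 to 17.8 CPM at GD60 (median 6.39) and from 3.18 to 25.4 CPM at GD90 (median 15.5). Neighbouring GDs overlapped, as did GDs 45 and 90. The log2 difference was 1.21 ± 0.44 to GD60 (adjusted p = 0.0669 in edgeR), 0.63 ± 0.42 from GD60 to GD90 (adjusted p = 0.242) and 1.84 ± 0.44 from GD45 to GD90 (adjusted p = 0.0018). The first difference passed without female GD60 replicate 15 (log2 1.43, adjusted p = 0.0202 in edgeR) or without male GD45 replicate 14 (log2 1.51, adjusted p = 0.0298). At GD90 the males held 18.0, 23.1 and 25.4 CPM and the females 3.18, 7.94 and 13.1 CPM.

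For the shorter periods, 1 of 9 members was called higher from GD45 to GD60, where 9.35% of all genes were, and 3 were called lower, where 7.37% were. From GD60 to GD90, 1 was called higher, where 21.4% of genes were, and 4 lower, where 20.9% were. The levels of PAX6, EOMES, FEZF2 and CUX2 did not overlap between GDs 45 and 60, and those of EOMES, TBR1, FEZF2, CUX1 and CUX2 did not overlap between GDs 60 and 90, with shares of all genes of 8.47% and 24.1%. The periods share the GD60 libraries, so these counts are not independent of each other.

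Ratios between members within a library were taken along the order from progenitor to upper layer, as a later member to an earlier one, and they are given as a description. The median of EOMES to PAX6 fell over the GDs, whereas those of TBR1 to EOMES, CUX2 to TBR1 and RORB to TBR1 rose. The ratio of EOMES to PAX6 in CPM had a median of 1.16 at GD45, 0.702 at GD60 and 0.0603 at GD90, and the ratio of TBR1 to EOMES had medians of 3.94, 10.2 and 132. CUX2 relative to TBR1 rose from a median of 0.462 at GD45 (0.295 to 0.550) to 0.977 at GD60 (0.877 to 1.06) and 1.48 at GD90 (1.26 to 1.59). The ratios of EOMES to PAX6 and of CUX2 to TBR1 did not overlap between any of the GDs, whereas TBR1 to EOMES overlapped between GDs 60 and 90, where the highest GD60 library had 17.2 and the lowest GD90 library, male replicate 1, had 16.9. RORB relative to TBR1 had medians of 0.0125, 0.0331 and 0.141, and neighbouring GDs overlapped. The ratios were not adjusted for the last-exon share, with which RORB had an r of -0.97 and TBR1 of -0.65 within groups.

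**Figure D3:**
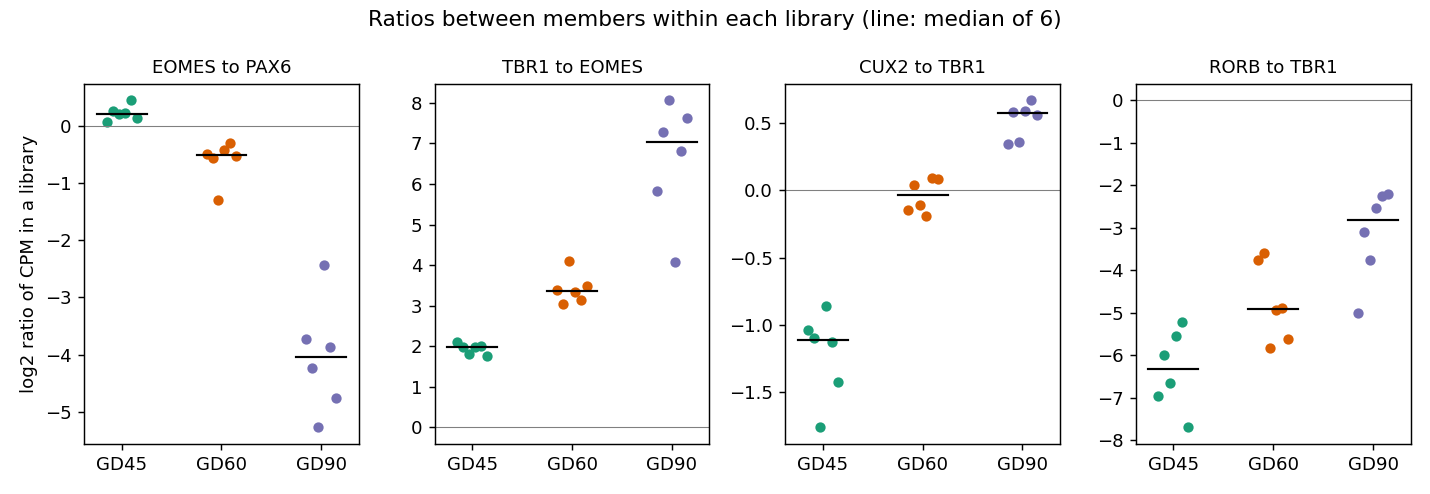
Log2 ratio of CPM between pairs of members within each library, by GD (points, 6 libraries per GD; line, median). EOMES to PAX6 goes down and CUX2 to TBR1 goes up without overlap between GDs, and TBR1 to EOMES overlaps between GDs 60 and 90 only.

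Levels between genes were compared per length of exon, over the region counted for each. That region held no bases past the RefSeq coding sequence for BCL11B. For RORB and SOX5 it stopped 4113 and 4893 bases short of the RefSeq 3′ end. The part of these gene ends in the low ranks of the 3 members was not tested. By median FPKM the order at GD45 was TBR1 (65.7), FEZF2 (42.9), EOMES (22), CUX2 (15.7), PAX6 (14.7), BCL11B (7.10), CUX1 (6.98), SOX5 (2.68) and RORB (0.532). Neighbours TBR1 and FEZF2, CUX2 and PAX6, and BCL11B, CUX1 and SOX5 exchanged ranks between libraries at GD45. At GD60 TBR1 (56.6), CUX2 (28.9) and FEZF2 (19.2) held the first 3 ranks in all 6 libraries, and they did so at GD90 with 28.3, 22.7 and 11.9 FPKM. EOMES went from rank 3 in all 6 GD45 libraries to ranks 8 and 9 at GD90, where its median was 0.306 FPKM. These ranks depended on the table: over all 18 libraries FEZF2 had a mean of 24.6 FPKM and rank 2 from the gene counts but 3.89 FPKM and rank 5 from the exon counts, BCL11B went from rank 7 to rank 4 and PAX6 from rank 5 to rank 7, and TBR1 was first in both.

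Within groups, the levels of BCL11B, SOX5 and RORB moved with the last-exon share. Taken as deviations from the mean of the 3 libraries of a group, the log2 CPM of RORB had a Pearson r of -0.97 with the share over 18 libraries, BCL11B -0.89, SOX5 -0.79, CUX2 -0.67 and TBR1 -0.65, whereas PAX6 (0.05), EOMES (-0.09) and CUX1 (-0.21) had values near 0 and FEZF2 had 0.46. Over all genes tested the middle 90% of such r lay between -0.88 and 0.88, so BCL11B and RORB were at or beyond the lower end of that range. These points share library and depth, and the correlations are given without a test. In the gene models, the counted region of BCL11B ends at the last base of the RefSeq coding sequence (7:120205008, minus strand), and the RefSeq models of RORB and SOX5 run 4113 and 4893 bases past the 3′ end of the counted region. Those of TBR1, FEZF2, CUX1, CUX2 and PAX6 end within 51 bases of it and that of EOMES 493 bases past it. The part of these gene ends in the correlations was not tested.

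**Figure D4:**
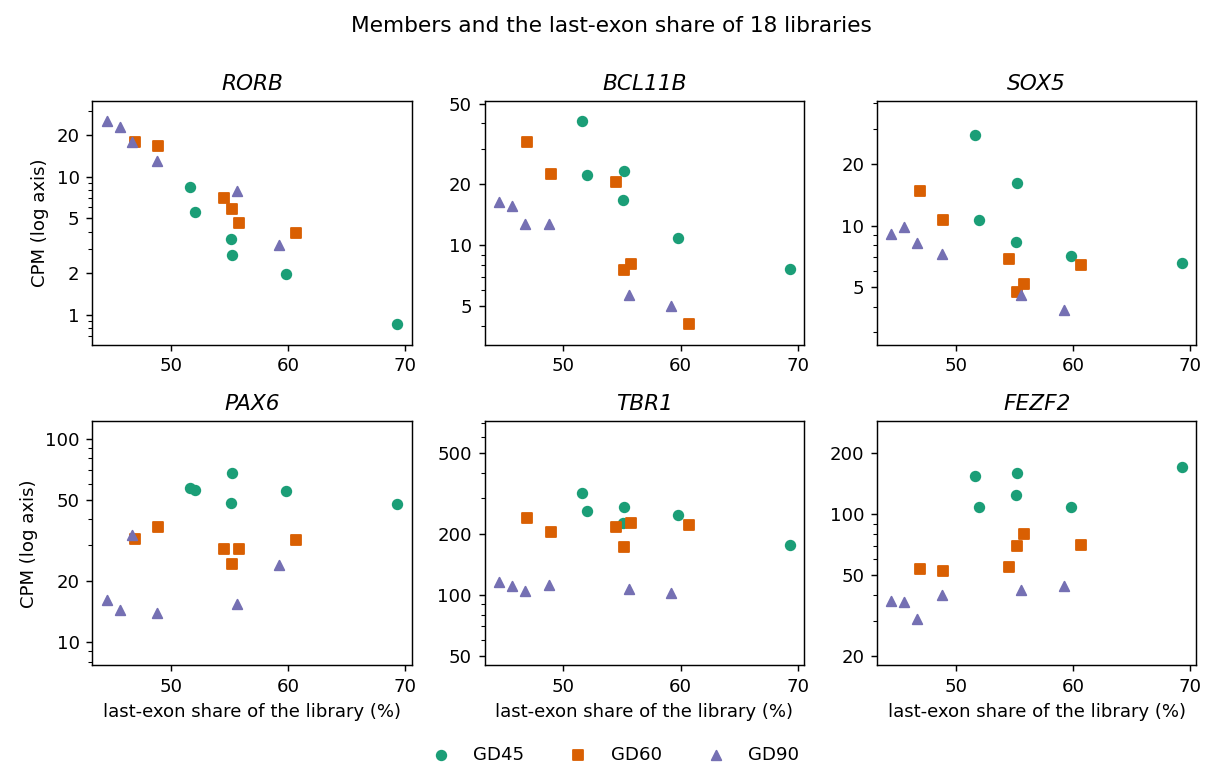
CPM (log axis) of 6 members against the last-exon share of the library (percent), 18 libraries, colour and shape giving the GD. Within each GD RORB is lower where the share is higher, and BCL11B and SOX5 tend to be, with exceptions. SOX5 is at 6.37 CPM in female GD60 replicate 15 (60.7%), above 4.72 CPM in male GD60 replicate 6 (55.2%). PAX6 and FEZF2 are ordered mainly by GD, and TBR1 is lowest at GD90 but overlaps between GDs 45 and 60.

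With the last-exon share as a covariate in the model, an alternative chosen after the data were seen, the 2 deep layer members BCL11B and SOX5 fell and RORB rose early. BCL11B had a log2 difference of -0.93 ± 0.23 from GD45 to GD60 and of -0.93 ± 0.22 from GD60 to GD90 (adjusted p = 0.00503 and 0.00201 in edgeR), which is -1.86 ± 0.25 over both. SOX5 had -0.96 ± 0.20 from GD45 to GD60 (adjusted p = 0.00181) and -0.48 ± 0.21 from GD60 to GD90 (adjusted p = 0.0688). RORB had 0.76 ± 0.15 from GD45 to GD60 (adjusted p = 0.000797) and 0.06 ± 0.14 from GD60 to GD90 (adjusted p = 0.753), and its rise from GD45 to GD90 was 1.76-fold in place of 3.59-fold. CUX2 had -0.54 ± 0.13 from GD60 to GD90 (adjusted p = 0.00151) and 0.29 ± 0.14 from GD45 to GD90, which no longer passed (adjusted p = 0.0863). TBR1 had -0.30 ± 0.09 from GD45 to GD60 (adjusted p = 0.023). The differences of PAX6, EOMES, FEZF2 and CUX1 kept their calls. In this model 8, 7 and 8 of 9 members were called for GD60 against GD45, GD90 against GD60 and GD90 against GD45, where 24.6%, 50.2% and 57.3% of all genes were.

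**Figure D5:**
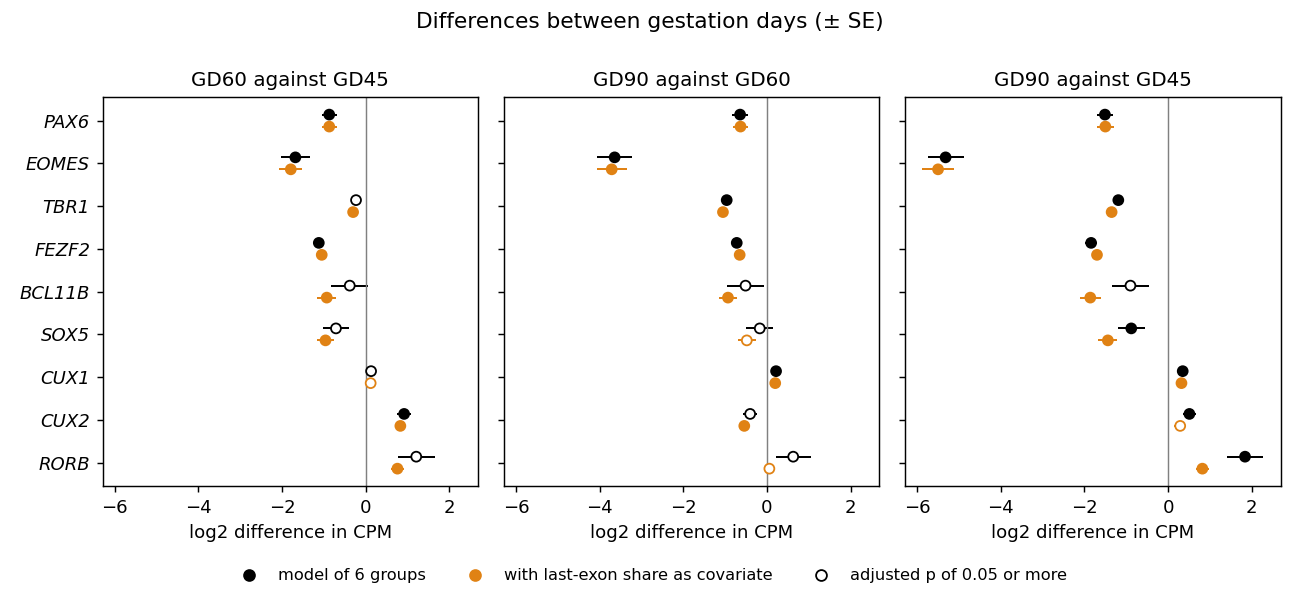
Log2 differences in CPM between GDs for each member (points, mean of the sexes; bars, SE), from the model of 6 groups (black) and with the last-exon share as covariate (orange); open points have an adjusted p of 0.05 or more. EOMES has the largest differences in all 3 panels, and BCL11B, SOX5 and RORB move most between the models.

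Other genes of the same lineage were described by lists, beside which the median log2 difference of all genes was -0.01 in both periods. Of 6 intermediate progenitor genes tested, 4 fell from GD45 to GD60 and 5 from GD60 to GD90, with median log2 differences of -1.33 and -2.71, and none rose. The proneural factors NEUROG1, NEUROG2 and NEUROD4 went from medians of 6.17, 38.1 and 22.5 CPM at GD45 to 0.0331, 0.857 and 0.192 CPM at GD90. Of 7 radial glia genes, 4 fell in each period (medians -0.69 and -0.57) and 1 rose in the second, the glutamate transporter SLC1A3 (log2 1.06), which astrocytes also express. All 5 proliferation genes tested fell in both periods (medians -1.09 and -0.90), among them TOP2A, from a median of 165 CPM at GD45 to 34.9 CPM at GD90. Of 5 telencephalic factors, 4 and 3 fell (medians -0.43 and -0.35).

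Neuronal lists moved less uniformly. Among 5 genes common to projection neurons, 2 rose to GD60, while 4 fell and 1 rose to GD90 (medians 0.24 and -0.47). The bHLH factors NEUROD2 and NEUROD6 had log2 differences of -1.55 and -1.80 from GD60 to GD90, and the vesicular glutamate transporter SLC17A7, which loads synaptic vesicles of mature neurons, one of 2.05. Of 7 further deep layer genes, 0 were called from GD45 to GD60, and 3 fell (FOXP2, TLE4 and ZFPM2) and 2 rose (CRYM and ETV1) from GD60 to GD90, with medians of 0.10 and -0.14. Of 6 further upper layer genes, 3 rose to GD60, namely RASGRF2 (log2 2.00), INHBA (1.35) and MDGA1 (0.52), and from GD60 to GD90 RASGRF2 alone rose (log2 2.19), with medians of 0.77 and -0.44 over the list.

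Lists of other cell types and regions showed how the whole brain changed around the members. All 5 oligodendrocyte precursor genes and all 3 astrocyte genes rose from GD60 to GD90, GFAP by a log2 difference of 2.53 and AQP4 by 2.36. From GD45 to GD60, 4 of these precursor genes and 2 of the astrocyte genes rose, with list medians of 0.78 and 1.72, and of 0.92 and 2.36 in the later period. Of 8 interneuron genes, 1 rose and 1 fell to GD60, and 2 rose and 6 fell to GD90 (medians -0.09 and -0.91). Of 8 striatal genes, 2 rose and 1 fell to GD60, and 3 rose and 2 fell to GD90 (medians 0.31 and 0.22), whereas of 5 thalamic genes 4 and then 3 fell and 1 rose in each period (medians -0.73 and -0.74). Of 9 HOX genes, 8 fell to GD60 and 0 were called to GD90, and of 4 erythroid genes 3 fell to GD60 and 1 to GD90 (medians -0.76 and -0.46). The part of these changes in the falls or rises of the 9 members was not tested.

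Comparisons within each sex used 3 libraries a group. In females 4 of 9 members were called from GD45 to GD60 (EOMES and FEZF2 lower, CUX2 and RORB higher) and 3 from GD60 to GD90 (PAX6, EOMES and TBR1 lower), where 7.22% and 27.1% of all genes were. In males 3 were called from GD45 to GD60 (PAX6, EOMES and FEZF2 lower) and 4 from GD60 to GD90 (EOMES, TBR1 and FEZF2 lower, RORB higher), where 5.61% and 34.5% were. With 1 of the 18 libraries left out at a time, FEZF2 was called from GD45 to GD60 in all 18 fits in both sexes, and CUX2 in 17 of 18 in females (not without female GD45 replicate 18). RORB and EOMES in females were called in 5 and 7 of these fits, and PAX6 and EOMES in males in 13 and 6. From GD60 to GD90 EOMES and TBR1 were called in all 18 fits in both sexes, as was FEZF2 in males, PAX6 in females in 15 and RORB in males in 14. With the last-exon share as a covariate, the log2 difference of RORB in males was 0.29 ± 0.23 over this period, in place of 1.93 ± 0.6. It was then not called (adjusted p = 0.372 in edgeR). In that fit BCL11B in males went from 0.31 ± 0.63 to -1.12 ± 0.36 and was called lower, as was CUX2 (adjusted p = 0.0228 and 0.0264). In females FEZF2, SOX5 and CUX2 were called lower in addition. From GD45 to GD60 with the covariate, RORB in females had 1.2 ± 0.21 in place of 2.22 ± 0.63, and kept its call (adjusted p = 0.00103 in edgeR). The difference between the sexes was tested as an interaction, and no member was called in either period (lowest adjusted p = 1 and 0.198 in edgeR), and 0% of all genes were called. At an unadjusted p under 0.05 there were 2 members in each, RORB and SOX5, where 2.04% of all genes were in the first and 19.8% in the second. Without male GD45 replicate 17, a library outside that comparison, the second interaction called RORB and SOX5. With the last-exon share as a covariate the second interaction was 0.47 ± 0.32 for RORB and 0.62 ± 0.45 for SOX5, in place of 2.6 ± 0.84 and 1.72 ± 0.64. The first was then -0.9 ± 0.3 for RORB and -1.04 ± 0.4 for SOX5, in place of -2.01 ± 0.87 and -1.44 ± 0.63. DESeq2 called 0 members in both interactions.

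Between the sexes of a GD, 0 of 9 members were called in edgeR, where 0.0919% of genes were called at GD45, 0.098% at GD60 and 0.098% at GD90, and DESeq2 also called 0. At an unadjusted p under 0.05, there were 0 members at GD45, 0 at GD60 and 1, RORB, at GD90, where 2.59%, 4.8% and 13.6% of all genes were. At GD90 the males and females did not overlap for 4 members, FEZF2, BCL11B, SOX5 and RORB, where 35.8% of all genes did not overlap, with males at 15.0 ± 1.91 CPM (SD, n = 3) and females at 7.79 ± 4.23 CPM for BCL11B. At GDs 45 and 60 the sexes did not overlap for 0 and 1 members, beside 5.6% and 11.2% of all genes. The last-exon shares of the GD90 males and females did not overlap either. With the share as a covariate the male minus female log2 difference at GD90 was 0.10 ± 0.22 for RORB, 0.04 ± 0.32 for SOX5 and -0.30 ± 0.36 for BCL11B, in place of 1.46 ± 0.59, 0.80 ± 0.46 and 0.94 ± 0.64.

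Use of single exons was tested over 76800 exons, 65 of which belonged to 8 members, and no exon of RORB passed the filter. Relative to the rest of the gene, 0 of 65 exons were called from GD45 to GD60, from GD60 to GD90 and from GD45 to GD90 in edgeR, where 0.013%, 0.1% and 1.09% of all exons were, and 2, 0 and 7 had an unadjusted p under 0.05. The lowest adjusted p was 0.0731, for GD90 against GD45. These results cover the tested exons only, 3 of 26 listed for SOX5 and 7 of 20 for PAX6, but all 6 for EOMES and TBR1. The exon counts were 85.5 to 93.8% of the gene counts for EOMES, TBR1, BCL11B and CUX2. They were 19.0 to 37.0% for RORB, PAX6, CUX1 and SOX5, and lower for FEZF2 (2665 against 24024 counts). A change of isoform in exons that lost their reads could not be seen. The alternative exon of PAX6, which lengthens the paired domain and changes its DNA binding, had too few counts for the test. This exon (ENSSSCE00000315217, chr2:28987587-28987628, plus strand) is shown because it separates the main PAX6 isoforms.
PAX6 alternative exon: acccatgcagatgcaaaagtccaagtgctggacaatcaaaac
It held 12 counts in the 18 libraries together, over 42 bases, whereas the exons on its sides held 398 counts over 131 bases and 483 counts over 216 bases. Reads that cover a junction of short exons can be lost from a table of exon counts, so these counts give no isoform share.

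Genes with the most similar pattern were named for each member by the Pearson r of log2 CPM over the 18 libraries, among 12802 genes with a symbol and a mean of at least 1 CPM. The 3 highest were ZIC4, KIF20A and NHLH1 for PAX6 (r of 0.957 to 0.950), PATZ1, EPB41 and CDR2 for EOMES (0.976 to 0.974), MEIS2, DPY19L1 and CCNG2 for TBR1 (0.982 to 0.974), and PBK, MIS18A and ITPRIP for FEZF2 (0.969 to 0.966). For the other members they were ZNF462, EPHB1 and YLPM1 for BCL11B (0.958 to 0.951), SIK2, TCP11L1 and KLF12 for SOX5 (0.933 to 0.916), ADORA3, SPRY4 and TIMP2 for CUX1 (0.944 to 0.913), NOD1, TMCC3 and SLC6A15 for CUX2 (0.957 to 0.926), and PPP1R9A, CSMD1 and PKD2 for RORB (0.989 to 0.983). These r also hold what the libraries share in GD and coverage. Over the 18 libraries the log2 CPM of RORB had an r of -0.95 with the last-exon share, and the other members ranged from -0.58 to 0.59. The part of coverage in these similarities was not tested. Among the members themselves, deviations from the group means correlated at r = 0.89 for PAX6 and EOMES and at 0.88 for both BCL11B and SOX5 and BCL11B and RORB, over 18 libraries that share their depth and coverage. The pairs PAX6 and FEZF2 (-0.16) and EOMES and TBR1 (-0.01) had values near 0, although over all libraries, GDs included, they had r of 0.83 and 0.90.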

How the data were processed

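RNA of 18 whole fetal brains was sequenced as paired ends, and according to the methods and processing notes reads were cleaned with Trimmomatic, checked with FastQC, mapped to Sscrofa11.1 by HISAT2 and assigned with featureCounts. The strand setting and the treatment of multiply mapped reads are not given in the sources used here. The authors deposited raw counts per gene and per exon, with gene positions and exon lengths, and a table of transcripts that was not used. All 22 count columns were assigned to libraries, and 4 libraries with 2 runs had their runs summed. The deposited file named 16719 genes by symbol, and a table of gene names added 782 symbols.

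Genes were filtered with filterByExpr, scaled by TMM and tested in edgeR 4.0.16 (R 4.3.3) with the quasi-likelihood F test, fitting 6 groups of sex and GD in 1 model, with Benjamini-Hochberg adjustment over 16325 genes and a threshold of 0.05. Contrasts between GDs were averaged over the sexes. FPKM used the exon length of the file, and correlations used log2 CPM with a prior count of 2. Exon usage was tested with edgeR on exon counts. The scripts were tested on simulated counts with 200 features changed and no litter or coverage effect. They recovered 99.5 and 100% of changed genes at log2 changes of 1 and 2, with 9 and 5 false calls. For exons they recovered 99%, with 26 calls in unchanged genes. The simulation does not test how litter or coverage acts on the calls. Alternatives were DESeq2 1.42.0, its size factors in edgeR, no TMM, other filters, the likelihood ratio test, a correction for gene length, the exon table, litter as a block in limma 3.58.1, summed litter-mates and libraries left out. The fits with the last-exon share, the split of last and other exons and the fit without the GD90 litter of 10 were chosen after seeing the data. Replicate numbers name single fetuses and pair no samples, so the block was the inferred litter (consensus correlation 0.104).

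The members and lists were chosen with earlier results of these data known. All 9 members were described whatever their values. From each list the 2 genes with the largest rise and the 2 with the largest fall among called genes were to be named, and for each member the 3 genes with the highest r. MDGA1, ZFPM2 and the cerebellar genes were named outside that rule, after their values were seen. Where nothing says that samples came from separate litters, p-values measure the spread between these samples. Genomic sequence and RefSeq gene models were read from the Sscrofa11.1 reference. Some items are not reported here.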

Additional observations from a re-analysis of the deposited data

Results flagged for a closer look

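EOMES in male GD90 replicate 1 was at 6.17 CPM, and the next of the 6 GD90 libraries was at 1.80 CPM. The gap took 0.757 of the range of the 6 libraries, above the critical value of 0.625 of Dixon's test. Of 27 sets of 6 libraries (9 members on 3 GDs), 1 was marked, where chance marks about 1 in 20. The library also held the highest PAX6 level (33.5 CPM) and the highest sum of cerebellar genes (400 CPM) of the GD90 libraries. The part of cerebellar tissue in this value was not tested.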

How the results depend on the processing

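Of 882 log2 differences of single members between GDs, averaged over the sexes and recomputed under the alternatives, 827 kept their direction and their side of the threshold, 25 lost and 30 gained a call, and 0 reversed. Within the sexes some directions reversed among 31 alternatives. From GD45 to GD60 this held in females for SOX5 in 7 and BCL11B in 4, and in males for RORB in 2. From GD60 to GD90 in males PAX6, BCL11B, SOX5 and CUX1 each reversed in 1. CUX1 from GD45 to GD90 lost its call with the gene length trend removed (adjusted p = 0.0521 in edgeR), PAX6 from GD60 to GD90 with the exon table (log2 -0.38, adjusted p = 0.279), and SOX5 from GD45 to GD90 with litter as a replicate block (log2 -0.73, adjusted p = 0.0871 in limma), the only change of a call in that fit among the comparisons averaged over the sexes. Within the sexes from GD45 to GD60, the block left 3 members called in females (RORB no longer) and 4 in males (CUX2 in addition). With the last-exon share as a covariate 8 members were called from GD45 to GD60. For males from GD45 to GD60, 5 members were called with the likelihood ratio test and with no filter, 1 without TMM, 0 with only the libraries compared and with the exon table, and 6 without the GD45 litter of 8 and with the covariate. For females, 2 were called from GD45 to GD60 without TMM, and from GD60 to GD90 5 with only the libraries compared and with the length trend removed, and 6 without the GD45 litter of 8 and with the covariate. The interaction from GD60 to GD90 called 2, RORB and SOX5, with only the libraries compared and without the GD45 litter of 8. Libraries of a GD outside a comparison bear on it only through the filter, scaling and spread that the 6 groups share. Leaving out 1 library at a time, calls ranged from 4 to 6, 4 to 6 and 7 to 9 in the comparisons averaged over the sexes, from 1 to 5 and 2 to 6 in females, from 1 to 5 and 3 to 5 in males, were 0 between the sexes, and ranged from 0 to 0 and 0 to 2 for the interactions. In females from GD45 to GD60, 1 was called without female GD45 replicate 18, 2 without each of female GD45 replicates 12 and 13, male GD45 replicate 11 and female or male GD60 replicates 3, 4, 5, 6 and 16, and from GD60 to GD90 6 without male GD45 replicate 17. In males from GD45 to GD60, 1 was called without each of male GD60 replicates 4, 6 and 16, and 5 without male GD45 replicate 17, without which the second interaction called RORB and SOX5. For exon usage 6 libraries were left out in turn and 12 were not run, with 0, 0 and 0 to 1 exons called (CUX1, without female GD60 replicate 15). Mean FPKM over 18 libraries from the exon table was 3.61 for PAX6, 96.1 for TBR1, 3.89 for FEZF2, 10.6 for BCL11B, 3.89 for CUX1 and 34.7 for CUX2, in place of 9.31, 49.4, 24.6, 5.78, 7.69 and 22. The exon values were scaled to the exon total, which was 48.6% of the gene counts, and to the summed length of all listed exons. The values from exon and gene counts are thus not on the same scale. Low counts limit EOMES at GD90 and RORB at GD45, which rest on as few as 6 and 11 counts a library.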

Other observations

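The fetuses with the labelled litter size of 8 at GD45, male replicate 17 and female replicate 18, had labelled brain weights of 0.7135 and 0.6653, against 1.55 to 1.86 in the other 4 GD45 fetuses, in a unit that the labels give as mg. Female GD45 replicate 18 held the highest PAX6 level of all 18 libraries, 67.6 CPM, and male GD45 replicate 17 the lowest of its GD, 47.6 CPM. Female GD60 replicates 3 and 5 held 17.8 and 16.8 CPM of RORB, whereas the other 4 GD60 libraries held 3.92 to 6.98 CPM, and their last-exon shares were 46.9% and 48.9% against 54.5 to 60.7%.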
